A study of Homo sapiens with 8 samples.

Results

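Tubulins are the building blocks of microtubules, and 10 of their genes were followed through EA.hy926 cells that had lost 1 of 2 constituent enhancers of the super-enhancer SE12313. The genes were TUBA1A, TUBA1B, TUBA1C and TUBA4A (α-tubulins), TUBB, TUBB2A, TUBB3, TUBB4B and TUBB6 (β-tubulins) and TUBG1 (γ-tubulin), picked by symbol from the 27946 genes of the deposited table, and 32 of its 65572 transcript lines belong to them. For each gene the line with the highest mean over the 8 libraries was used. EA.hy926 is an immortalized line made by fusing umbilical vein endothelial cells with the lung carcinoma line A549. The 3 ΔE2 libraries came from EA.hy926 clones in which CRISPR/Cas9 had removed the enhancer E2, the 3 ΔSE12313-b libraries from clones without the enhancer SE12313-b, and the 2 control libraries from EA.hy926 labelled as control, all grown in the same medium and none given a further treatment in the labels. The study deleted E2 to look at its effect on transcription across the genome, and SE12313-b, which was inactive in its reporter assays, was meant as the negative control. It then found that both deletions changed the transcriptome in much the same way. It also measured less proliferation in the clones of both deletions than in its control cells. Every clone is its own line, and both deletions are compared with the same 2 control libraries. The control cells of the study's proliferation assay had received gRNAs and were kept in culture alongside the clones. Whether the control RNA came from these cells is not stated. The labels call all 8 libraries clones, and the methods do not say whether the control cells had been grown out from single cells, so clonal growth and the deletions cannot be told apart.

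A microtubule is a hollow polymer of α/β-tubulin heterodimers, and γ-tubulin sits in a ring complex that starts new polymers. Vertebrates carry several α and β genes, whose proteins differ mainly in an acidic tail at the C-terminus, where enzymes add or remove glutamates and, on most α-tubulins, the last tyrosine. Cells adjust the supply of tubulin through mRNA decay: when free heterodimers are abundant, TTC5 binds the first residues of tubulin chains as they leave the ribosome, and the mRNA being translated is degraded. Endothelial cells use microtubules for division, for polarity and for sprouting.

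The sequences at both ends of the coding region are given first, since they show how alike the members are and where they part. The first 12 coding bases, which encode the residues that TTC5 reads, were nearly the same within the α and within the β genes. They are printed for 1 gene of each class that differs (Gencode v44lift37 models, GRCh37).

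TUBA1B: atgcgtgagtgc
TUBA4A: atgcgtgaatgc
TUBB4B: atgagggaaatc
TUBB3: atgagggagatc
TUBB2A: atgcgcgagatc
TUBG1: atgccgagggaa

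TUBA1A and TUBA1C shared the 12 bases of TUBA1B, TUBB shared those of TUBB4B, and TUBB6 shared those of TUBB3. TUBG1, which is not part of the heterodimer, began differently. In the α genes an intron splits the 12 bases (chr12:49523497-49525083 in TUBA1B and chr2:220116944-220118580 in TUBA4A, minus strand). In the others they lie in 1 exon, at chr9:140135813-140135824 (TUBB4B), chr16:89989810-89989821 (TUBB3) and chr17:40761756-40761767 (TUBG1) on the plus strand and at chr6:3157686-3157697 (TUBB2A) on the minus strand. The last 60 bases of the coding region, stop codon included, carry the acidic tail. They are printed for 7 members and for TUBB2B, the near copy of TUBB2A. Codons for glutamate and aspartate are in capitals.

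TUBA4A: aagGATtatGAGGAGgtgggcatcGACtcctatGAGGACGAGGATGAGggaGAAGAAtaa
TUBB: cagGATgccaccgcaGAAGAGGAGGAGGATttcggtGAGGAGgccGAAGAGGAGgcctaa
TUBB2A: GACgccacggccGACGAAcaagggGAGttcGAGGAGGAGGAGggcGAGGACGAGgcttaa
TUBB2B: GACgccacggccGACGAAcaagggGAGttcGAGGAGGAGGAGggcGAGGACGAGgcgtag
TUBB3: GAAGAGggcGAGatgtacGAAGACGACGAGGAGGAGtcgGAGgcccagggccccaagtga
TUBB4B: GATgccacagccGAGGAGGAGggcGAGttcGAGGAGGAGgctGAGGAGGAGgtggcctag
TUBB6: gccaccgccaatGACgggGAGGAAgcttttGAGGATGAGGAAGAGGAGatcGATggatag
TUBG1: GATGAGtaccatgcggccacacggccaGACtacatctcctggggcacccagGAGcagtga

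These stretches lie at chr2:220115074-220115133 (TUBA4A, minus strand), chr6:30692115-30692174 (TUBB, plus strand), chr6:3154097-3154156 (TUBB2A, minus strand), chr6:3224985-3225044 (TUBB2B, minus strand), chr16:90002153-90002212 (TUBB3, plus strand), chr9:140137949-140138008 (TUBB4B, plus strand), chr18:12326070-12326129 (TUBB6, plus strand) and chr17:40767000-40767059 (TUBG1, plus strand), each within 1 exon. In the α gene and the β genes printed, 10 or 11 of the 19 codons before the stop codon were acidic, against 4 of 19 in TUBG1. The codon before the stop codon of TUBA4A was gaa, for glutamate, so that its protein is made without the last tyrosine.

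The likeness limits how well reads of 75 bases separate the genes. Coding identity was 97.2% between TUBA1A and TUBA1B, 95.9% between TUBA1A and TUBA1C and 96.8% between TUBA1B and TUBA1C, but 84.4% to 85.7% between these and TUBA4A. Among the β members it ranged from 81.0% (TUBB and TUBB6) to 87.7% (TUBB2A and TUBB3), and TUBB2B matched TUBB2A at 98.1%. Of all 75-base windows of the canonical transcript, 42.2% in TUBA1B, 33.0% in TUBA1A and 18.1% in TUBA1C also occurred in another of the 10 genes or TUBB2B, and 56.0% of those of TUBB2A did, mostly in TUBB2B. The canonical transcript of TUBA1C has 2749 windows, whereas the line measured is 1638 bases long, so its share can understate the overlap of that line. The share was 6.80% in TUBB3, 4.63% in TUBB4B and 0 in TUBA4A, TUBB and TUBB6. Counted over the genome and the transcripts of all other genes, it was 77.2% in TUBA1B, 36.5% in TUBA1C, 31.2% in TUBA4A, 25.6% in TUBB, where a further gene model and the pseudogene TUBBP1 hold most of these windows, and 9.00% in TUBB4B. TUBG1 had 20.4% of its windows in common with other genes, all of them with its paralog TUBG2. Levels of TUBA1A, TUBA1B, TUBA1C and TUBB2A, and in part that of TUBB, are therefore uncertain by what the authors' counting did with reads that fit several genes, whereas 0 of the 1805 windows of TUBB6 occurred anywhere else in the genome or in transcripts of other genes. The reads of TUBB3 overlap those of a second gene model that holds 92.7% of its windows. On the other strand, TUBA4A overlaps STK16 and TUBA4B, TUBG1 overlaps RETREG3, TUBB4B overlaps FAM166A, and TUBA1B shares windows with TUBA1B-AS1; how strand was handled in the counting behind these values is not given in the sources used here.

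TUBA1A (49578578 to 49583107, minus strand), TUBA1B (49521567 to 49525304, minus strand) and TUBA1C (49658782 to 49667121, plus strand) lie close together on chromosome 12q13.12 of GRCh37, and the other members are spread over 2q35 (TUBA4A), 6p21.33 (TUBB), 6p25.2 (TUBB2A), 9q34.3 (TUBB4B), 16q24.3 (TUBB3), 17q21.2 (TUBG1) and 18p11.21 (TUBB6). Only TUBB3 lies on chromosome 16, where both enhancers are. The line of TUBB is listed for 8 placements with a mean length of 2664.1 bases, so that its value was read as a sum over copies of the region, which was not checked.

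All 10 tubulin genes were upregulated in both deletions, by at least 2-fold on the log2(FPKM + 0.1) scale. Of the 13790 genes tested, 11.2% rose this much in ΔE2 and 14.7% in ΔSE12313-b. FPKM are the deposited fragments per kilobase of transcript, scaled to the reads of the library. The reads of a library were estimated from the FPKM, as the total that best turns FPKM times length into whole reads. The estimates lay between 12067555 and 19101152 reads. Of the reads on genes, the 10 lines took 0.233% and 0.228% in the controls, between 0.782% and 0.990% in the ΔE2 clones and between 0.857% and 0.979% in the ΔSE12313-b clones. A bulk library cannot tell more RNA per cell from more cells with a high level.

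TUBA1B, the most abundant member and one of the main α-tubulins of dividing cells, had 216 and 212 FPKM in the control libraries, 1487, 1194 and 1571 FPKM in ΔE2 replicates 1, 2 and 3, and 1659, 1344 and 1385 FPKM in ΔSE12313-b replicates 1, 2 and 3. TUBA1C, another broadly expressed α-tubulin, had 177 and 181 FPKM in the controls, 825, 640 and 842 FPKM in ΔE2 and 871, 751 and 753 FPKM in ΔSE12313-b. TUBA1A, known best for its role in migrating neurons, had 88.7 and 89.0 FPKM in the controls, 375, 351 and 388 FPKM in ΔE2 and 416, 336 and 438 FPKM in ΔSE12313-b. In these 3 genes every clone lay above both controls, and the controls differed from each other far less than the clones did. TUBA1B rose most of all members in ΔE2 and as much as TUBB4B in ΔSE12313-b, its log2 fold change being 2.72 ± 0.14 in ΔE2 (standard error, n = 3 against 2; limma adjusted p = 3.80e-06) and 2.77 ± 0.14 in ΔSE12313-b (limma adjusted p = 3.08e-06). TUBA1C rose by 2.09 ± 0.13 and 2.14 ± 0.13, and TUBA1A by 2.06 ± 0.12 and 2.15 ± 0.12 on the log2 scale, in ΔE2 and ΔSE12313-b.

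TUBA4A, the α-tubulin made without the last tyrosine, was the least abundant member, with 1.14 and 1.04 FPKM in the controls, 3.49, 2.34 and 3.58 FPKM in ΔE2 and 4.93, 5.09 and 3.95 FPKM in ΔSE12313-b. These values rest on 30 and 26 reads in the controls and between 83 and 164 in the clones, so that counting error is large. All clones lay above both controls. The ΔE2 clones lay below the ΔSE12313-b clones, but this difference did not pass limma's test (limma adjusted p = 0.0548). Its log2 fold change was 1.42 ± 0.20 in ΔE2 (limma adjusted p = 0.000752) and 1.99 ± 0.20 in ΔSE12313-b (limma adjusted p = 0.000107).

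Among the β-tubulins, TUBB6, a broadly expressed isotype, was the most abundant in the control, with 156 FPKM in each library. It reached 348, 275 and 340 FPKM in ΔE2 and 367, 332 and 325 FPKM in ΔSE12313-b. Although all clones lay above both controls, this was the smallest rise of the 10 genes. Its log2 fold change was 1.03 ± 0.11 in ΔE2 (limma adjusted p = 0.000186) and 1.13 ± 0.11 in ΔSE12313-b (limma adjusted p = 9.34e-05). With each library centred on its median gene the values were 0.88 and 0.84, below 2-fold.

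TUBB4B, which is widespread and prominent in cilia, had 61.4 and 56.0 FPKM in the controls, 395, 270 and 384 FPKM in ΔE2 and 453, 411 and 342 FPKM in ΔSE12313-b. TUBB2A had 6.64 and 6.01 FPKM in the controls, 38.1, 26.5 and 41.2 FPKM in ΔE2 and 42.2, 38.8 and 34.8 FPKM in ΔSE12313-b. Both genes rose in every clone and far more than TUBB6. TUBB4B changed by 2.55 ± 0.18 (limma adjusted p = 2.14e-05) and 2.77 ± 0.18 (limma adjusted p = 1.17e-05), and TUBB2A by 2.44 ± 0.18 and 2.59 ± 0.18 on the log2 scale, in ΔE2 and ΔSE12313-b. TUBB, the β-tubulin that most tissues share, had 72.5 and 68.6 FPKM in the controls, 260, 226 and 260 FPKM in ΔE2 and 298, 299 and 303 FPKM in ΔSE12313-b. Its ΔSE12313-b clones lay close together, and its log2 fold changes were 1.81 ± 0.08 in ΔE2 (limma adjusted p = 1.85e-06) and 2.09 ± 0.08 in ΔSE12313-b (limma adjusted p = 8.98e-07).

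TUBB3, the class III isotype of neurons and of many carcinomas, had 17.1 and 15.9 FPKM in the controls, 73.1, 57.2 and 77.9 FPKM in ΔE2 and 90.0, 69.4 and 73.1 FPKM in ΔSE12313-b. It rose by 2.05 ± 0.15 (limma adjusted p = 2.84e-05) and 2.22 ± 0.15 (limma adjusted p = 1.54e-05) on the log2 scale. The 8 neuronal markers looked at (RBFOX3, SYP, ELAVL3, ELAVL4, DCX, SNAP25, NEFL and MAP2) summed to between 0.059 and 0.271 FPKM in any library, and 0 of them reached the filter for testing. TUBG1, which nucleates microtubules, had 11.9 and 12.4 FPKM in the controls, 37.4, 30.9 and 35.8 FPKM in ΔE2 and 39.3, 36.2 and 31.9 FPKM in ΔSE12313-b. Its log2 fold change was 1.5 ± 0.11 in ΔE2 (limma adjusted p = 2.94e-05) and 1.54 ± 0.11 in ΔSE12313-b (limma adjusted p = 1.97e-05), less than that of any α or β member but TUBB6 and, in ΔE2, TUBA4A.

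The counts stand against a transcriptome that moved widely. In ΔE2, 10 of 10 members passed limma's test upwards, against 34.7% of the 13790 genes tested, and 0 passed downwards, against 19.4%. In ΔSE12313-b the members' counts were the same, 10 upwards against 43% of all genes and 0 downwards against 16.4%. All 3 clones lay above both controls in 10 of 10 members in either deletion, as they did in 44.8% of all genes in ΔE2 and 51.6% in ΔSE12313-b. The median log2 fold change of the members was 2.06 in ΔE2 and 2.14 in ΔSE12313-b, beside 0.14 and 0.27 over all genes. Relative to these shifts, with libraries centred, all genes split into 3670 higher and 3593 lower in ΔE2 in place of 4783 and 2672, and into 3815 and 3769 in ΔSE12313-b in place of 5927 and 2261, while the members kept log2 fold changes between 0.84 and 2.56. Sorted by log2 fold change among the 13790 genes, TUBA1B stood at rank 296 and TUBB6 at rank 1663 in ΔE2, and at ranks 290 and 1725 in ΔSE12313-b.

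**Figure D1:**
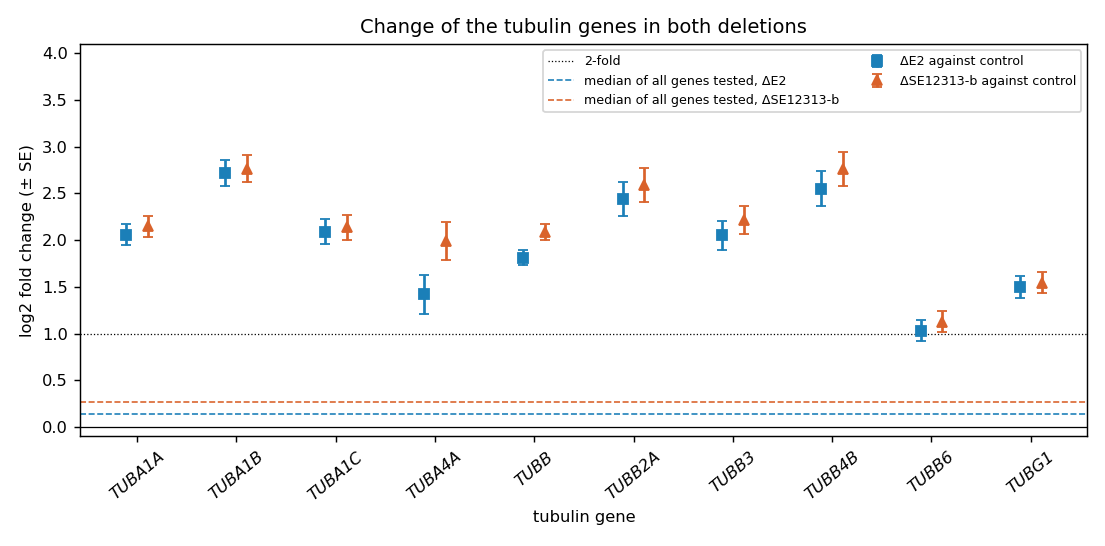
Log2 fold change against control (limma, ± standard error) of each tubulin gene in ΔE2 (squares) and ΔSE12313-b (triangles). Dashed lines mark the median of all genes tested, 0.14 and 0.27, and the dotted line a 2-fold change; TUBA1B and TUBB4B rose most and TUBB6 least.

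The unequal rises changed the make-up of the tubulin mRNA. Shares of the summed FPKM of a class do not depend on the scaling of libraries, and they are given as a description without a test. They do depend on how reads that fit several genes were counted, which is not known. TUBA1B made up 44.7% and 43.9% of α-tubulin mRNA in the controls and between 53.7% and 56.2% in the 6 clones. TUBA1C made up 36.7% and 37.5% in the controls and between 29.2% and 30.8% in the clones, and TUBA1A 18.3% and 18.4% in the controls and between 13.8% and 17.0% in the clones. In each of these 3 genes the clones lay apart from the controls.

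In the β class the leading gene changed. TUBB6 made up 49.7% and 51.6% of β-tubulin mRNA in the controls, and 31.3%, 32.2% and 30.8% in ΔE2 and 29.3%, 28.9% and 30.1% in ΔSE12313-b. TUBB4B went from 19.6% and 18.5% in the controls to 35.5%, 31.6% and 34.8% in ΔE2 and 36.2%, 35.7% and 31.7% in ΔSE12313-b. TUBB4B was thus above TUBB6 in 5 of 6 clones and below it in ΔE2 replicate 2. This exception turns with the transcript line taken per gene: by the longest transcript, TUBB4B made up 35.3% and TUBB6 28.1% in that clone, and TUBB4B was above TUBB6 in 6 of 6. TUBB held 23.1% and 22.6% in the controls and between 23.3% and 28.1% in the clones, TUBB3 5.46% and 5.24% against 6.03% to 7.20%, and TUBB2A 2.12% and 1.98% against 3.10% to 3.73%.

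The α class as a sum gained more than the β class, though TUBB4B and TUBB2A rose more than any α gene but TUBA1B. Summed α-tubulin was 483 FPKM in each control library and between 2188 and 2951 FPKM in the clones, while summed β-tubulin was 313 and 303 FPKM in the controls and between 855 and 1251 FPKM in the clones. The ratio of α to β was 1.54 and 1.59 in the controls, 2.41, 2.56 and 2.54 in ΔE2 and 2.36, 2.12 and 2.39 in ΔSE12313-b. All clones lay above both controls. The α sum and the ratio are uncertain by how reads shared among TUBA1A, TUBA1B and TUBA1C were counted.

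**Figure D2:**
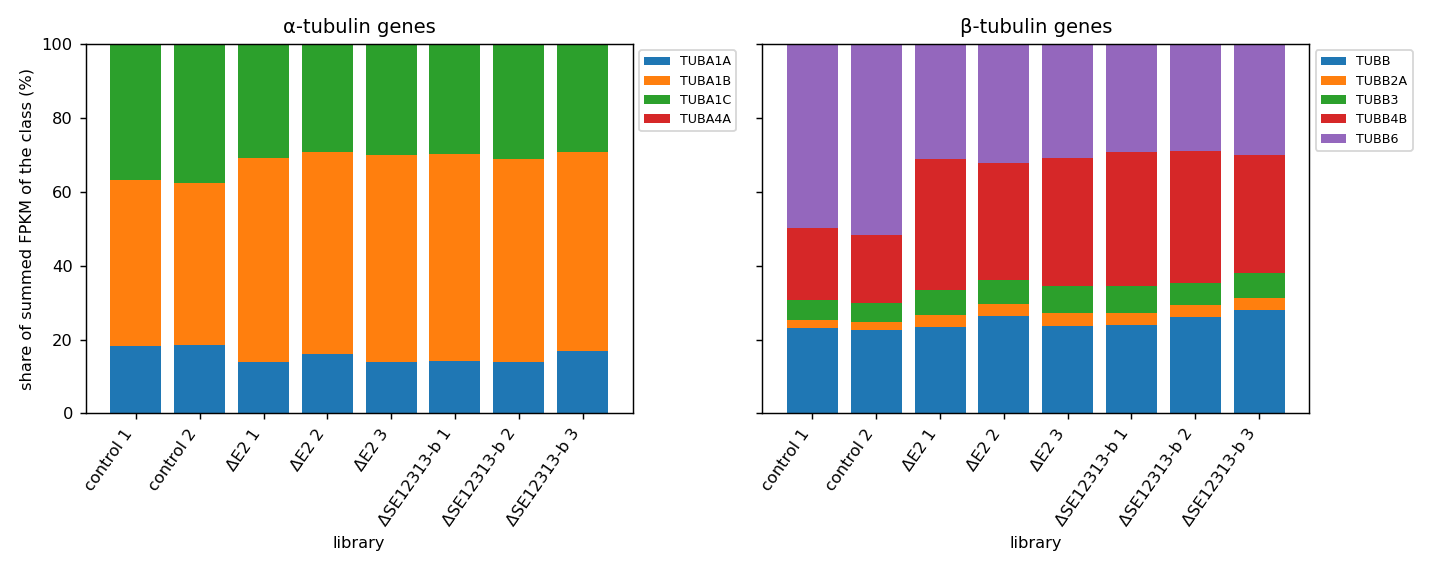
Share of each gene in the summed FPKM of the α-tubulin genes (left) and of the β-tubulin genes (right), in percent, with a bar for each of the 8 libraries. TUBA1B takes a larger share of α-tubulin in all clones than in the controls, and TUBB4B a larger and TUBB6 a smaller share of β-tubulin.

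The direct comparison of the deletions takes its levels from the 6 clones, with a spread that is pooled with the controls. TUBB alone passed limma's test, being lower in ΔE2 than in ΔSE12313-b by a log2 difference of -0.27 ± 0.07 (limma adjusted p = 0.0283), 1 of 10 members against 19.3% of all genes lower and 6.69% higher. All 3 ΔE2 clones (226 to 260 FPKM) lay below all 3 ΔSE12313-b clones (298 to 303 FPKM). The share of all genes that separate the deletions in this way was not counted. This call was lost when either control or any one ΔSE12313-b clone was left out, and it did not hold under other scalings: with libraries centred the difference was -0.14 (limma adjusted p = 0.203). TUBA4A differed by -0.57 ± 0.18 without passing (limma adjusted p = 0.0548). The other 8 differed by between -0.21 ± 0.16 (TUBB4B) and -0.044 ± 0.10 (TUBG1), beside a median of -0.11 over all genes. ΔE2 replicate 2 was the lowest ΔE2 clone for all 10 members. How often it was the lowest over all genes was not counted, so this is no result about the tubulins. Without this clone the differences of TUBA1B, TUBA1C, TUBB2A, TUBB6 and TUBG1 turned above 0, to at most 0.078.

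The upstream 250 bases of the members' promoters were searched for motifs of cell cycle and housekeeping promoters, since the genes moved together (RefSeq starts, GRCh38.p14, both strands; all 10 members matched by symbol). CCAAT, bound by NF-Y, occurred in 5 of 10 members (TUBA1A, TUBA1C, TUBB, TUBB4B and TUBG1), against 32.0% of 35116 promoters. TTTGAA, the cell cycle genes homology region, occurred in 2 (TUBA1C and TUBB4B), against 13.3%. Promoters were taken by symbol and need not be those of the lines measured. The stretch of TUBA1C (chr12:49227676-49227925) lies far upstream of its line's start, given the build shift of TUBA1A and TUBA1B. Its CCAAT and TTTGAA are therefore not shown to lie at the start of the transcript measured. TTTGGCGC, a form of the E2F site, occurred in TUBG1, against 0.55%, and TTTCCCGC, another form, in 0 of 10, against 1.39%. TUBB4B, the β gene with the largest rise, and TUBA1B, the α gene with the largest, are printed with the matches in capitals (no motif overlapped another).

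TUBB4B: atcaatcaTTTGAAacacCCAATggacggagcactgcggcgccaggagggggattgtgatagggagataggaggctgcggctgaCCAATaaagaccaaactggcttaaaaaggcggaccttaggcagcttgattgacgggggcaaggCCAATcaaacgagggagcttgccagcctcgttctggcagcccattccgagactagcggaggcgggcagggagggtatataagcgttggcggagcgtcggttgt
TUBA1B: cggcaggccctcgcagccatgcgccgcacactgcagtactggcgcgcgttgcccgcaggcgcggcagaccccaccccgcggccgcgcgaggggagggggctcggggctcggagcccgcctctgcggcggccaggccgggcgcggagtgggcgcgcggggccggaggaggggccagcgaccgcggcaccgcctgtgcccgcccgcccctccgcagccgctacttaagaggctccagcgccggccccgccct

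They lie at chr9:137241037-137241286 (plus strand) and chr12:49131396-49131645 (minus strand). TUBB4B held CCAAT 3 times and TTTGAA once, whereas TUBA1B held none of the motifs in a stretch with a G+C content of 81.2%. The promoters of TUBA4A, TUBB2A, TUBB3 and TUBB6 held none either. A match is only a match of letters, and the rises of members with and without one overlapped.

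The rest of the tubulin family was searched by a list of 13 genes, of which 6 passed the filter. TUBB2B, the near copy of TUBB2A, had 1.92 and 1.73 FPKM in the controls, 6.71, 5.14 and 8.54 FPKM in ΔE2 and 10.3, 7.88 and 7.35 FPKM in ΔSE12313-b, log2 fold changes of 1.81 and 2.15. TUBA8 (1.40 and 2.24) and TUBB4A (1.21 and 1.90) were higher too, from levels below 0.2 FPKM in the control. Their control values rest on 1 and 4 reads (TUBA8) and 3 and 5 reads (TUBB4A). Both passed the filter only through the clones, so that a rise was the only direction open to them. TUBD1, the δ-tubulin of centrioles, rose by 0.86 and 0.65, the second of which did not pass with libraries centred (0.36, limma adjusted p = 0.0889). TUBG2, the paralog of TUBG1, changed by 0.31 in ΔE2 and 0.25 in ΔSE12313-b (limma adjusted p = 0.0261 and 0.0554), and with libraries centred it passed in neither deletion and lay at -0.038 in the second. TUBE1, the ε-tubulin of centrioles, fell, from 11.3 and 12.6 FPKM in the controls to 5.27, 5.37 and 5.15 FPKM in ΔE2 and 3.84, 3.76 and 2.78 FPKM in ΔSE12313-b, log2 fold changes of -1.17 and -1.77. It was the only family member tested that moved down, and it differed between the deletions by 0.61 (limma adjusted p = 0.0125).

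Newly made tubulin is folded by prefoldin, the CCT chaperonin and the cofactors TBCA to TBCE. Of 20 such genes tested, 13 rose and 1 fell in ΔE2 and 14 rose and 1 fell in ΔSE12313-b, with a median log2 fold change of 0.51 and 0.52. Of all genes tested, 34.7% rose and 19.4% fell in ΔE2 and 43% rose and 16.4% fell in ΔSE12313-b. With libraries centred, 12 rose and 3 fell in ΔE2 and 10 rose and 3 fell in ΔSE12313-b. The cofactor TBCE (0.98 and 1.08), the chaperonin subunits CCT5 (0.96 and 0.94) and CCT3 (0.83 and 0.92) and the prefoldin subunit VBP1 (1.003 and 0.87) had the largest mean change over both deletions, and they also passed with libraries centred. In single deletions TCP1 in ΔE2 (1.10, beside 0.52 in ΔSE12313-b) and CCT2 in ΔSE12313-b (1.01, beside 0.53 in ΔE2), both chaperonin subunits, reached similar values. The prefoldin subunit PFDN2 fell by 0.76 in ΔE2 and fell by 0.46 in ΔSE12313-b on the log2 scale. The rises of TBCE, CCT5, CCT3 and VBP1 were smaller than that of any member, TUBB6 included, whereas TCP1 in ΔE2 (1.10) rose more than TUBB6 (1.03).

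The γ-tubulin ring complex, to which TUBG1 belongs, had 10 further genes tested, of which 6 rose and 1 fell in ΔE2 and 8 rose and 1 fell in ΔSE12313-b (medians 0.52 and 0.82), against 34.7% of all genes higher and 19.4% lower in ΔE2 and 43% and 16.4% in ΔSE12313-b. TUBGCP5 rose by 1.12 and 1.2, TUBGCP3 by 0.83 in both and CDK5RAP2, which anchors the complex, by 0.69 and 0.83, while TUBGCP6 fell (-0.77 and -0.60). MZT2A, a small subunit, rose by 0.44 and 0.98, the first of which did not pass with libraries centred (0.29, limma adjusted p = 0.125). TUBGCP2, a core subunit, was at 9.72 and 10.5 FPKM in the controls, at 9.10, 9.49 and 10.7 FPKM in ΔE2 and at 20.02, 18.97 and 20.04 FPKM in ΔSE12313-b. Its difference between the deletions was -1.01 (limma adjusted p = 0.000421).

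Of 14 tested enzymes that modify tubulin, 6 rose and 4 fell in ΔE2 and 8 rose and 4 fell in ΔSE12313-b (medians 0.22 and 0.47), and with libraries centred 4 rose and 4 fell in the second. Over all genes 34.7% rose and 19.4% fell in ΔE2 and 43% and 16.4% in ΔSE12313-b, so that these counts of few genes are no result about the enzymes as a group. TTLL3, a glycylase, went from 7.88 and 8.82 FPKM in the controls to 1.05, 1.65 and 1.15 FPKM in ΔE2 and 1.06, 1.26 and 1.12 FPKM in ΔSE12313-b, log2 fold changes of -2.63 and -2.76. TTLL1, a glutamylase, fell too (-2.13 and -1.51). The acetyltransferase ATAT1 (-1.29 and -1.003) and the deacetylase HDAC6 (-1.20 and -1.30), which act on the same lysine of α-tubulin in opposite directions, were both lower, while the deacetylase SIRT2 was higher (1.11 and 1.61). TTL, which puts the last tyrosine back on α-tubulin, changed by 0.36 and 0.50.

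Of 18 proteins tested that bind microtubules or steer their growth, 12 rose and 1 fell in ΔE2 and 13 rose and 0 fell in ΔSE12313-b (medians 0.48 and 0.67), beside 34.7% higher and 19.4% lower over all genes in ΔE2 and 43% and 16.4% in ΔSE12313-b. With libraries centred 10 rose and 2 fell in either deletion. TPX2, a spindle assembly factor, had 6.36 and 6.58 FPKM in the controls and between 92.4 and 116.7 FPKM in the clones, log2 fold changes of 4.01 and 3.96, above every tubulin. STMN1, which binds free heterodimers and promotes the shrinking of microtubules, had 42.4 and 39.1 FPKM in the controls and between 149 and 188 FPKM in the clones (1.94 and 2.15). MAPRE2, an end-binding protein, rose by 1.60 and 1.41, while MAPRE3 of the same family was the gene that fell in ΔE2 (-0.52). MAP1A rose by 0.70 in ΔE2 and 2.21 in ΔSE12313-b, a difference of -1.51 (limma adjusted p = 0.00130).

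TTC5, the factor that starts tubulin mRNA decay, had 10.6 and 10.5 FPKM in the controls, 12.4, 12.4 and 12.7 FPKM in ΔE2 and 15.6, 16.9 and 16.9 FPKM in ΔSE12313-b. Its log2 fold change was 0.24 in ΔE2, which did not pass with libraries centred (0.087, limma adjusted p = 0.329), and 0.64 in ΔSE12313-b. TTC5 mRNA thus moved less than that of any tubulin member. The activity of TTC5 was not measured, and its part in the rises was not tested. SCAPER, which works with TTC5, changed by 0.09 in both deletions and passed in neither.

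Genes of the other filament systems did not all go with the tubulins. Of 11 tested, 9 rose and 1 fell in ΔE2 and 10 rose and 1 fell in ΔSE12313-b (medians 1.26 and 1.18), where all genes gave 34.7% higher and 19.4% lower in ΔE2 and 43% and 16.4% in ΔSE12313-b. ACTB had 670 and 652 FPKM in the controls, 1684, 1531 and 1729 FPKM in ΔE2 and 1821, 1586 and 1889 FPKM in ΔSE12313-b (1.32 and 1.41). LMNB1, a lamin of the nuclear envelope, rose by 2.09 and 2.27, and the keratins KRT8 (1.65 and 1.65) and KRT7 (1.85 and 1.31) rose too. Smooth muscle actin, ACTA2, fell (-2.80 and -2.52). Vimentin (VIM), the most abundant gene of this list in the controls, changed by 0.00 in ΔE2 (limma adjusted p = 0.995) and by 0.78 in ΔSE12313-b. It differed between the deletions by -0.78 (limma adjusted p = 0.000937).

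**Figure D3:**
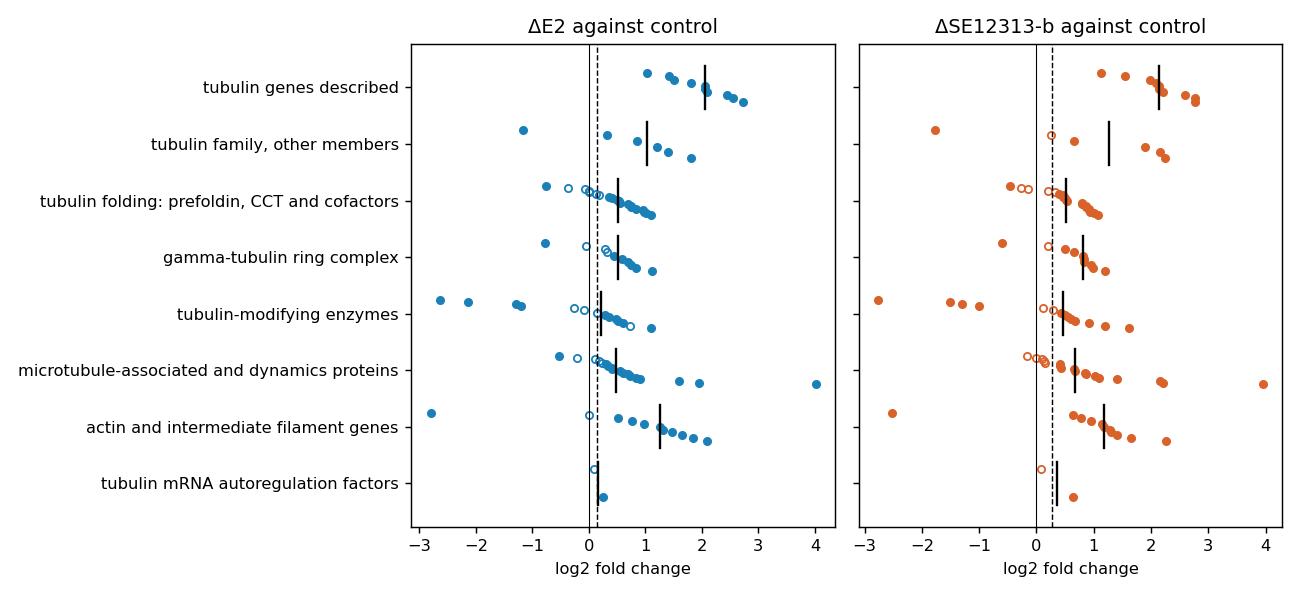
Log2 fold change against control of the tubulin genes and of the genes tested in each list, in ΔE2 (left) and ΔSE12313-b (right). Filled circles passed limma's test at an adjusted p under 0.05 and open circles did not, bars are medians, and the dashed line is the median of all genes tested; the 10 tubulin genes have the highest median, 2.06 and 2.14.

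Markers of cell type were set beside these values. The 8 endothelial markers summed to 271 and 273 FPKM in the controls, between 267 and 411 FPKM in ΔE2 and between 296 and 392 FPKM in ΔSE12313-b. Of the 7 tested, 3 were higher and 2 lower in ΔE2 and 3 higher and 1 lower in ΔSE12313-b. Over all genes 34.7% rose and 19.4% fell in ΔE2 and 43% and 16.4% in ΔSE12313-b. These counts of few genes are thus no result about the markers as a group. KDR, which defines many endothelial cells, stayed below 0.3 FPKM in all libraries. The 6 epithelial markers summed to 239 and 232 FPKM in the controls and between 541 and 752 FPKM in the clones, nearly all of it from KRT8 and KRT18, with CDH1 at 0 in all libraries. Their part in the tubulin result was not tested.

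The 5 genes whose pattern was most like that of TUBA1B, the member with the highest control level, were DMAC2, SKA2, H2BFS, HIST1H2BK and MCM7, with a Pearson correlation of log2(FPKM + 0.1) between 0.9992 and 0.9993 over the 8 libraries. The gap between controls and clones sets most of this value, and 1603 of 13769 genes were above 0.95. DMAC2 rose by 0.96 and 0.97 only, SKA2, a spindle and kinetochore protein, by 1.63 and 1.64, MCM7, a subunit of the replicative helicase, by 2.57 and 2.64, and the histone genes H2BFS and HIST1H2BK by between 3.27 and 3.38 on the log2 scale, beside 2.72 and 2.77 for TUBA1B.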

How the data were processed

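RNA was sequenced from 8 libraries (control n = 2, ΔE2 n = 3, ΔSE12313-b n = 3; rRNA-depleted total RNA, directional kit, single-end reads of 75 cycles). Per the submitters' notes, reads were trimmed with Trim Galore 0.4.4 and mapped to GRCh37 with STAR 2.5.4b. The authors deposited FPKM for 65572 RefSeq transcripts; the notes and methods name featureCounts, the methods with a Gencode annotation, and STAR was set to keep reads with up to 10 placements, but whether this counting made the RefSeq table, the RefSeq release and how strand and reads that fit several genes were counted are not given in the sources used here. The total reads of each library were fitted so that FPKM times length comes out as whole reads, which gave 12067555 to 19101152 reads. With these totals 100% of the values checked were whole within 0.1 read, though values of the same libraries had served for the fit.

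One line per gene was kept, that with the highest mean. Genes with at least 0.5 FPKM in at least 2 libraries, 13790 in all, entered limma 3.58.1 (R 4.3.3) as log2(FPKM + 0.1) (trend method, 3 groups in one model, two-sided, Benjamini-Hochberg adjustment over all genes tested). A gene passed at an adjusted p under 0.05. A fold change on this scale understates the change of low genes. The replicates are separate clones in the deletions, and nothing says that the controls are separate cultures, so the p values measure the spread between these samples. The steps were tested on simulated data.

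Coding ends and shared windows came from the Gencode v44lift37 models on GRCh37, and promoters from RefSeq on GRCh38.p14. The coding ends of 3 members are not reported here. Named were all 10 members, the other tubulins tested, up to 4 genes per list with the largest mean change among those that passed in a deletion, TTC5, STMN1 and ACTB, and the 5 genes most like TUBA1B; ATAT1, CCT2, MAPRE3, PFDN2, SCAPER, TCP1, TTL, TUBGCP2, TUBGCP6 and VIM were named after their values were seen. The members and lists were chosen with earlier results of these data known.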

Additional observations from a re-analysis of the deposited data

Results flagged for a closer look

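TUBB differed between the deletions, with a log2 difference of -0.27 for ΔE2 minus ΔSE12313-b (limma adjusted p = 0.0283; group means of 248.7 and 300.1 FPKM), which drew attention because limma tested the difference itself. Its level was lower in all 3 ΔE2 clones than in all 3 ΔSE12313-b clones, and how many of all genes separate in this way was not counted. It passed in 9 of 19 alternatives, with a largest adjusted p of 0.203.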

How the results depend on the processing

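All 10 members stayed upregulated past limma's test in both deletions under all 19 alternatives (pseudocounts of 0.01 and 1, no filter, a mean of at least 1 FPKM, centred libraries, quantile normalization, the replicate block, no trend, only the groups compared, the longest transcript, voom on recovered reads, and each library left out in turn). The lowest log2 fold changes were those of TUBB6 under quantile normalization, 0.61 and 0.60. At least 2-fold higher were 9 members with centred libraries and with quantile normalization in either deletion (without TUBB6), and 9 in ΔE2 with a pseudocount of 1 (TUBA4A at 0.97). Leaving out 1 library gave 9 (without ΔE2 replicate 1 or 3) or 10 in ΔE2 and 10 in ΔSE12313-b. Between the deletions 1 member passed in the reported test. That number was 0 with centred libraries, quantile normalization, no trend and only 2 groups, 2 (TUBB and TUBA4A) with a pseudocount of 1, a mean of at least 1 FPKM and voom, and 0 to 1 with a library left out; TUBB failed without either control or any one ΔSE12313-b clone, and without ΔSE12313-b replicate 3 the 1 was TUBA4A. With the replicate block it was 0 (TUBB at a limma adjusted p of 0.0543) and 10 in either comparison with the control. The labels share replicate numbers between groups, and deviations of same-numbered libraries from their group means correlated at -0.08 to 0.107. With so few libraries per group, these values cannot show whether a shared number marks a shared batch. Differences between the deletions changed sign with centred libraries (TUBA1A 0.043, TUBA1B 0.082, TUBA1C 0.081, TUBB6 0.037, TUBG1 0.086) and with quantile normalization (TUBA1A 0.019, TUBA1B 0.19, TUBA1C 0.036, TUBB6 0.0074, TUBG1 0.089). With a library left out they ranged from -0.13 to 0.070 in TUBA1B, -0.12 to 0.078 in TUBA1C, -0.28 to 0.043 in TUBB2A, -0.16 to 0.014 in TUBB6 and -0.13 to 0.037 in TUBG1. Shares by the longest transcript, chosen after seeing the data, were in control, ΔE2 and ΔSE12313-b 49.1%, 60.1% and 59.8% for TUBA1B, 22.01%, 37.8% and 38.4% for TUBB4B, and 46.1%, 27.3% and 25.5% for TUBB6 (means over the libraries of a group). By that choice TUBB4B was above TUBB6 in 6 of 6 clones, in place of 5 of 6. In ΔSE12313-b TUBB4B was ahead of TUBA1B with quantile normalization (2.36 against 2.19) and with the replicate block (2.78 against 2.74), where the reported values are both 2.77. The cause of these changes was not tested. The 2 control libraries limit every comparison with the control, and the 26 to 164 reads of TUBA4A limit its precision.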
